A study of Mus musculus with 8 samples.

Results

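The kidney transcripts compared here came from control embryos at embryonic day 14.5 (E14.5) and E18.5, with attention to genes that differed 2- to 10-fold between the stages. The comparison rested on 4 of the 8 arrays of the series, 2 at each stage, chosen by their labels and by no measured value. Whole kidneys of 23 control embryos at E14.5 and of 14 at E18.5 were pooled, and each pool was read on 2 short-oligonucleotide mouse arrays, which report a brightness, or signal, for each set of probes. Control embryos were Lim1flox/+; Rarb2Cre tg/+. The Lim1 mutant embryos, given here side by side and used in 1 model of both genotypes, were Lim1flox/lacZ; Rarb2Cre tg/+ and were pooled from 17 embryos at E14.5 and 9 at E18.5. All 4 pools therefore carried the Rarb2-Cre transgene, which is active in the metanephric mesenchyme, and a floxed Lim1 allele, so that mesenchyme-derived cells of the controls may have had 1 working Lim1 allele. Mice were of mixed 129, C57BL/6 and SJL/J background and both sexes were pooled.

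Each stage was 1 pool, so the 2 arrays of a stage differed by technical error only and no test between the control pools was possible. Across probe sets the log2 signals of the duplicates had a Pearson correlation of 0.985 for the younger and 0.990 for the older stage, with a median fold between duplicates of 1.11 and 1.08. A gene was taken as higher at one stage when the ratio of the mean signals was at least 2 and larger than the fold between the duplicates of either stage, when mean signal times ratio exceeded 100, and when both arrays of the higher stage lay at or above their own 40th percentile of signal. These size criteria are meant wherever a gene is said below to be counted, and they leave no overlap between the arrays of the stages for a counted gene. Where several probe sets read a gene, the brightest stood for it, and the range given after a ratio is the lowest and highest of the 4 pairings of an E18.5 with an E14.5 array.

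The metanephric kidney adds nephrons from a pool of mesenchymal progenitors around branching ureteric bud tips, and this continues through both stages. Between them the first nephrons mature into a filtering glomerulus and a tubule that reabsorbs solutes, a process that needs mitochondria, transporters and lysosomes, while the stroma lays down collagen and blood vessels gain muscle. Dividing, patterning tissue makes up a larger part of the younger kidney. In whole tissue, fewer cells of a type and less RNA per cell cannot be told apart.

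Of 18194 named genes, 665 were counted as higher at E18.5, or 3.66%, and 617 of them, or 3.39%, lay between 2- and 10-fold. In the other direction 221 genes were counted, or 1.21%, of which 220 (1.21%) lay in that range. The size of the excess on the E18.5 side depended on reading each gene by its brightest probe set: with any probe set accepted, 864 genes were higher at E18.5 and 535 at E14.5. Most of the difference between the stages was modest. At E18.5, 417 genes were 2- to 3-fold higher, 92 were 3- to 4-fold, 108 were 4- to 10-fold and 48 were 10-fold or more. At E14.5 the bands held 159, 37, 24 and 1 genes. Genes in the range mostly had signal at both stages: the other stage lay below the 40th percentile for 25.9% of the 617 genes and 14.1% of the 220, against 85.4% of the 48 genes with the largest differences. On the E18.5 side the limit of 2 fell between Ankrd13c, inside with 418 and 538 at E14.5 and 944 and 967 at E18.5, and Slc43a2, outside with 211 and 215 at E14.5 and 426 and 426 at E18.5, both at 2.00 after rounding. On the E14.5 side it fell between Ankhd1, inside with 493 and 507 at E14.5 and 244 and 255 at E18.5, and Rad54l, outside with 614 and 617 at E14.5 and 318 and 298 at E18.5, again both at 2.00.

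**Figure D1:**
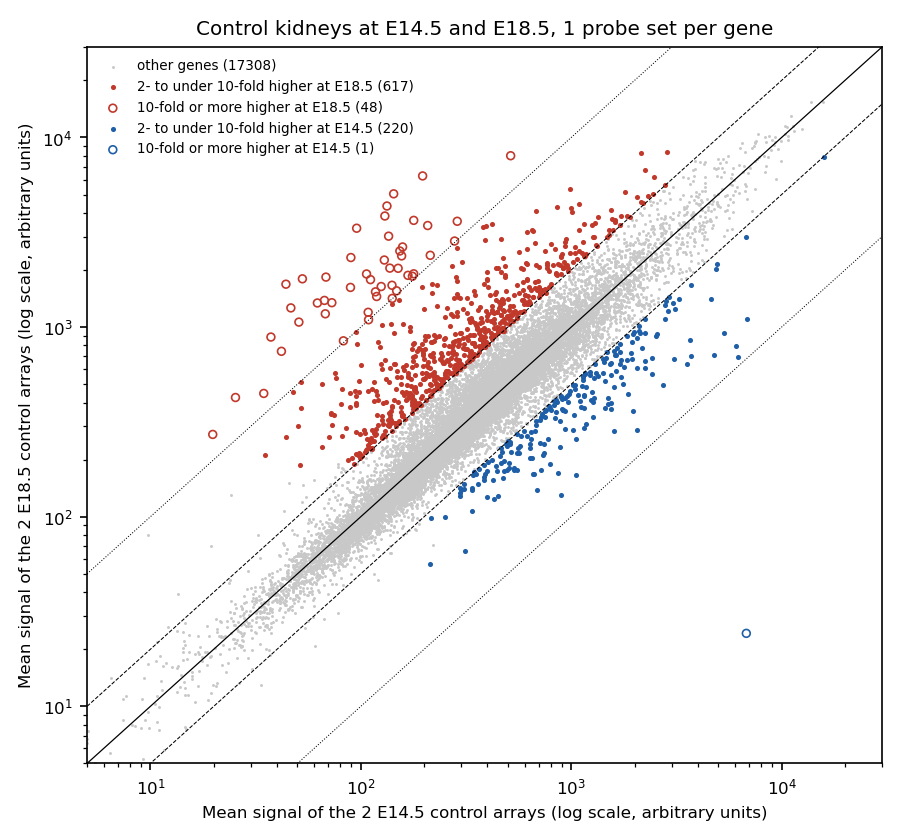
Mean signal of the 2 E18.5 control arrays (y axis) against that of the 2 E14.5 control arrays (x axis), both on log scales in arbitrary units, for 18194 genes, 1 probe set per gene. Dashed lines mark 2-fold and dotted lines 10-fold. Filled points are the 617 and 220 genes of the range, and open circles the 48 and 1 genes beyond it.

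The brightest genes of the range set out its contents. Among the 20 brightest that were higher at E18.5 were genes for iron storage, sodium transport, respiration, glycolysis and matrix. Fth1, the ferritin heavy chain that stores iron, had signals of 3242 and 2453 at E14.5 and 7889.7 and 8909 at E18.5, a ratio of 2.95 (2.43 to 3.63). Atp1b1, the beta subunit of the sodium pump, had 2067 and 2231 at E14.5 and 8452 and 8180.4 at E18.5, a ratio of 3.87 (3.67 to 4.09). Both were bright at either stage. Igfbp7, a secreted protein that binds insulin-like growth factors, was 5.42-fold higher, and Itm2b, a widely expressed membrane protein, 3.01-fold. Ldhb, the lactate dehydrogenase subunit of oxidative tissues, was 4.11-fold higher, and Tpi1, a glycolytic enzyme, 2.36-fold. Pfn1, which binds actin, was 2.68-fold higher. Gabarap, a protein of autophagosome membranes, was 2.23-fold higher, and the collagen chaperone Serpinh1 2.05-fold. Ivns1abp, which binds a viral protein and actin, stood at 2.11-fold. Erdr1 was 4.26-fold higher at E18.5, and Xist, the RNA that silences 1 X chromosome in female cells, 2.84-fold, with 1579.9 and 2029 at E14.5 and 5369 and 4891 at E18.5. The Y-linked genes Eif2s3y and Kdm5d, looked up after the values were seen, had ratios of 1.04 and 1.07 in the E14.5 direction. The share of female embryos in each pool was not given in the sources used here, and its part in the Xist difference was not tested.

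Energy metabolism contributed genes from several lists on the E18.5 side. Of 18 genes of mitochondrial fatty acid oxidation, 5 were counted as higher at E18.5 and none at E14.5, and 16 had a ratio above 1. The list median was 0.79 on the log2 scale (0.76 to 0.79 over the pairings), against -0.01 for all genes. Acadm, which starts the oxidation of medium-chain fatty acids, had 574 and 659.6 at E14.5 and 2571 and 2577 at E18.5, a ratio of 4.17 (3.90 to 4.49). Acadl, its long-chain counterpart, was 2.37-fold higher and Echs1, the hydratase of the next step, 2.26-fold. The brightest members did not follow: Hadh, the dehydrogenase that comes after, had 2978 and 3316 at E14.5 and 3025 and 2950.3 at E18.5, and Etfb, an electron carrier, a ratio of 1.27.

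Peroxisomal enzymes, which oxidise very long and branched fatty acids and D-amino acids, gave 6 of 23 genes higher at E18.5 and a median of 0.47. Dao, the D-amino acid oxidase, had 171 and 170.0 at E14.5 and 1032 and 963 at E18.5 and a ratio of 5.85. Acaa1b, a peroxisomal thiolase, was 5.11-fold higher and Phyh, which breaks down phytanic acid, 3.89-fold. Catalase, the brightest member, was not counted. For the tricarboxylic acid cycle all 21 genes had ratios above 1, with 4 counted and a median of 0.53. The succinate dehydrogenase subunits Sdhd and Sdhc were 2.18- and 2.14-fold higher and the 2-oxoglutarate dehydrogenase subunit Dlst 2.28-fold, while Mdh2, the brightest, stood at 1.03. Subunits of the respiratory chain and ATP synthase gave 8 of 41 genes and 40 with a ratio above 1, with a median of 0.64 (0.60 to 0.68). Uqcrq, of complex III, had 809.5 and 833 at E14.5 and 1977 and 2248 at E18.5, a ratio of 2.57. Ndufs7, of complex I, was 2.49-fold higher and Cox8a, of complex IV, 2.51-fold. Cox5a, Ndufa4 and Ndufa3 were among the 20 brightest genes of the range, with ratios of 2.00, 2.13 and 2.11. The shift of the respiratory list was thus broad and small, with no counted member above 2.57-fold.

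Amino acid breakdown held larger differences per gene. Of 33 genes 14 were counted, 11 of them in the range, and the median was 0.74 (0.66 to 0.87). Agxt2, a mitochondrial aminotransferase, had 39.3 and 30.4 at E14.5 and 199 and 223 at E18.5, and its E14.5 signals lay below the 40th percentile of their arrays. Aldh6a1, which acts on valine and thymine breakdown products, had 231 and 344 at E14.5 and 1574 and 1423 at E18.5 and a ratio of 5.21 (4.14 to 6.80). Cth, which makes cysteine from cystathionine, had 261 and 348 at E14.5 and 1259 and 1241 at E18.5, a ratio of 4.11. Hibadh, another valine enzyme, was 2.26-fold higher, while Gcsh, the carrier protein of glycine cleavage, reached 1.42 and was not counted. The markers of the proximal tubule, the segment richest in many of these enzymes, had 7 of 8 genes higher at E18.5 and a summed signal of 1861 and 2020.2 at E14.5 against 18481 and 18878 at E18.5. Their part in the metabolic lists was not tested.

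Redox defence gave 7 of 22 genes, with a median of 0.66. Sod3, the extracellular superoxide dismutase, had 155 and 148 at E14.5 and 1237 and 1531 at E18.5, a ratio of 9.13 near the upper end of the range, with pairings of 7.98 to 10.3. Mt1, a metallothionein that binds zinc and copper, had 413 and 407 at E14.5 and 1409.9 and 1531 at E18.5 and was 3.59-fold higher, and Mgst3, a microsomal glutathione transferase, was 3.0-fold higher. Gpx3, the secreted glutathione peroxidase, was the brightest counted member and lay beyond the range at 15.5-fold. Txn1, the cytosolic thioredoxin, was brighter than most at both stages and stood at 1.13. Enzymes of conjugation and drug metabolism gave 5 of 30 genes and a median of 0.40. Sult1d1, a sulfotransferase, had 247 and 329 at E14.5 and 2770.3 and 2461 at E18.5, and was 9.09-fold higher. Adh1, an alcohol and retinol dehydrogenase, was 4.48-fold higher and Fmo1, a flavin monooxygenase, 4.44-fold, while Adh5, the formaldehyde-detoxifying enzyme, had a ratio of 1.11 in the E14.5 direction. Iron handling gave 2 of 18 genes, Fth1 above and Slc39a8, a metal ion transporter, at 3.67-fold. Cholesterol synthesis gave 1 of 19, Cyp51 at 2.09-fold, although 14 of the 19 ratios exceeded 1.

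Lysosomal genes were counted in a share second only to that of the interstitial matrix among the function lists. Of 31 genes 14 were higher at E18.5, 27 had a ratio above 1 and the median was 0.56 (0.50 to 0.76). Lgmn, the asparaginyl protease legumain, had 295 and 278 at E14.5 and 1731 and 1759.9 at E18.5 and a ratio of 6.09 (5.87 to 6.32). Ctsh, cathepsin H, had 263 and 307 at E14.5 and 1181 and 1230.3 at E18.5 and was 4.23-fold higher. Neu1, the lysosomal sialidase, had 97.2 and 93.5 at E14.5 and 389 and 407 at E18.5, a ratio of 4.18 from a low E14.5 signal. Lamp1, the main membrane glycoprotein, was 2.07-fold higher, and Laptm4a fell short at 1.88. The other counted members were the proteases Ctsa, Ctsd, Ctsz, Ctsb and Ctsl, the glycan and lipid hydrolases Glb1, Hexa, Lipa and Smpd1, and Psap, the precursor of their activator proteins, with ratios between 2.02 and 4.01. Macrophages are rich in lysosomes too. Of their 20 listed genes 7 lay below the 40th percentile on all control arrays and none was counted. At 3.66% of all genes that says little. The list had a median of 0.05. Its summed signal was 5838 and 5948 on the E14.5 arrays against 5760.4 and 6590 on the E18.5 arrays. In mutants its median was 0.26, with 1 gene counted as higher at E18.5. The part of macrophages in the lysosomal counts was not tested. The proton pump that acidifies lysosomes and intercalated cell membranes gave 7 of 22 subunit genes higher at E18.5, a group put together after the values were seen. Atp6v1b1, the subunit of intercalated cells, had 76.9 and 72.1 at E14.5 and 333 and 352 at E18.5, a ratio of 4.60, and the other 6 lay between 2.06 and 2.32, the ratio of Atp6v0b.

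Grouped by symbol, transporters were counted more often than genes at large. Of 347 solute carrier genes (Slc) 42 were counted as higher at E18.5, or 12.1% against 3.66% of all genes, and 32 of these lay in the range with a median ratio of 2.83. Only Slc18a2 and Slc38a4 were higher at E14.5. The 3 highest in the range, picked after the values were seen, were Slc16a12, a creatine transporter, with 80.3 and 112 at E14.5 and 871 and 750.1 at E18.5 and a ratio of 8.43, Slc7a12 at 7.65 and Slc22a2, an organic cation transporter, at 6.92. Among 77 Atp genes 12 were higher at E18.5 and none at E14.5, led by Atp6v1b1, Atp1b1 and Atp11a, a phospholipid flippase at 3.56-fold. Among 20 Aldh genes 3 were counted, Aldh6a1, Aldh1l1 at 4.48 and Aldh4a1.

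**Figure D2:**
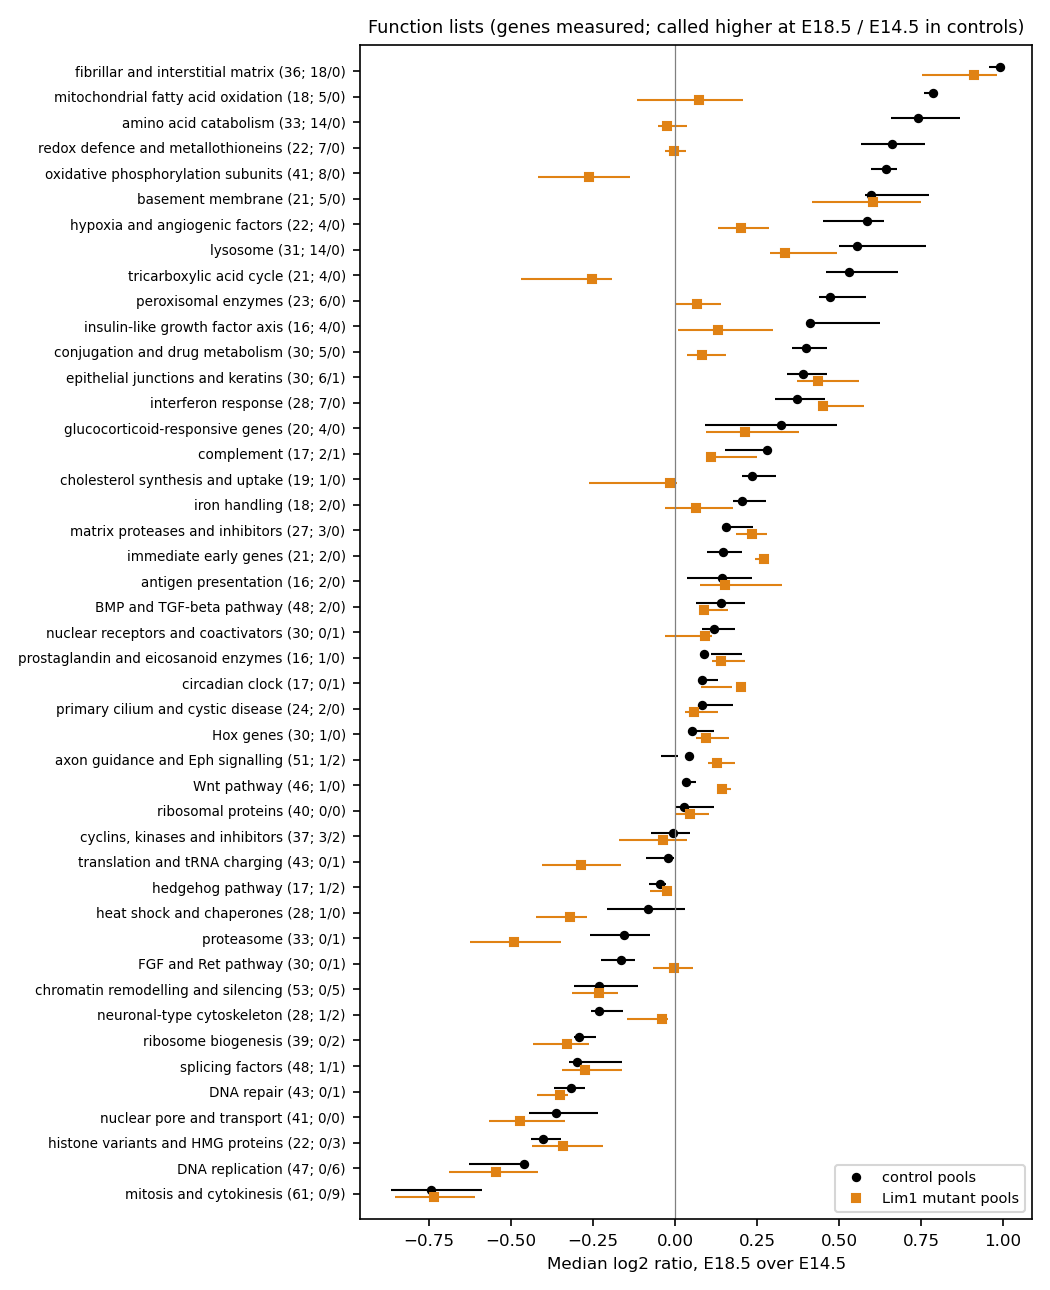
Median of the stage ratios (x axis; log2, E18.5 over E14.5) for the 45 function lists, in control pools (black circles) and Lim1 mutant pools (orange squares); bars span the 4 pairings of arrays. Beside each name stand the number of genes measured and the number counted as higher at E18.5 and at E14.5 in controls. The control medians run from -0.74 for mitosis to 0.99 for interstitial matrix, and the mutant medians of the respiratory chain and tricarboxylic acid cycle lie below 0.

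Interstitial matrix was the function list with the highest share of counted genes. Of 36 genes for fibrillar and interstitial matrix 18 were counted as higher at E18.5, 34 had a ratio above 1, and the median of 0.99 (0.96 to 0.99) was the highest of the 45 function lists. Aspn, a small leucine-rich proteoglycan, had 32.2 and 56.3 at E14.5 and 276 and 249 at E18.5 and a ratio of 5.93 (4.42 to 8.56), from low E14.5 signals. Fbln5, which helps to assemble elastic fibres, had 274 and 321 at E14.5 and 1418 and 1438 at E18.5 and was 4.80-fold higher. Col12a1, a collagen that sits on fibrils, had 186 and 163 at E14.5 and 718 and 808 at E18.5, a ratio of 4.37. The collagen VI chains Col6a1, Col6a2 and Col6a3 were counted, at 2.67-, 2.94- and 2.21-fold, and so were elastin (Eln, 3.02) and its cross-linking enzyme Lox (2.91). Col3a1 and Sparc, the brightest members, stood at 1.94 and 1.26 and were not counted. The Col family as a whole had 8 of 42 genes higher at E18.5 and none at E14.5.

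Basement membranes, the sheets under epithelia and capillaries, gave 5 of 21 genes and 20 ratios above 1, with a median of 0.60. Npnt, nephronectin, a ligand of integrin alpha 8 beta 1 in the kidney, had 625 and 739.7 at E14.5 and 4187 and 3985 at E18.5 and was 5.99-fold higher. Agrn, a heparan sulfate proteoglycan, was 2.77-fold higher, Lamb2, a laminin chain of mature glomeruli, 2.30-fold and Col4a2 2.28-fold, with Col4a1 at 1.54. Among proteases and their inhibitors 3 of 27 were counted: Timp3, an inhibitor held in the matrix, at 4.4-fold, Serpinh1 and Adamts1 at 2.05-fold. Smooth muscle and mesangial genes, markers of other cells that make matrix, had 6 of 11 higher at E18.5, 1 higher at E14.5 and a median of 1.14. Acta2, smooth muscle actin, had 1252 and 1443 at E14.5 and 3809 and 3845 at E18.5 and was 2.84-fold higher. Myh11, the smooth muscle myosin, was 4.23-fold higher and Smtn 2.20-fold, whereas Actg2, the enteric actin, had 381 and 411 at E14.5 and 162 and 184 at E18.5 and was 2.29-fold higher at E14.5. Endothelial genes gave 2 of 18, Plvap at 2.50 and Ehd3 at 2.05, with 16 ratios above 1 and a median of 0.69.

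Epithelial genes also differed in kind. Of 30 junction and keratin genes 6 were higher at E18.5 and 1 at E14.5. Cdh16, the kidney-specific cadherin, had 837 and 867 at E14.5 and 4268 and 4333 at E18.5 and was 5.05-fold higher. Krt7 and Krt8, keratins of simple epithelia, were 4.37- and 2.82-fold higher, and Ezr, which anchors microvilli, 2.06-fold. Cdh2, N-cadherin, went the other way, with 1238 and 1656 at E14.5 and 378 and 368 at E18.5. It was 3.88-fold higher at E14.5. Of 24 genes of the cilium and cystic disease 2 were counted, Pkhd1, mutated in recessive polycystic kidney disease, at 4.54-fold and Cys1, mutated in the cpk mouse, at 2.64-fold, while the median was 0.08.

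Immune-type genes made a smaller group. Of 28 interferon response genes 7 were higher at E18.5 and none at E14.5, and the median was 0.37 (0.31 to 0.46). Ifitm3, which restricts virus entry, had 593 and 638 at E14.5 and 3285 and 3054 at E18.5 and a ratio of 5.15 (4.79 to 5.54). Oasl2, of the oligoadenylate synthetase family, had 105 and 84 at E14.5 and 357 and 423 at E18.5 and was 4.13-fold higher, and Bst2, tetherin, was 3.68-fold higher from 158 and 139 at E14.5 and 533 and 562 at E18.5. Antigen presentation gave 2 of 16: H2-D1 at 2.31 and H2-K1 at 2.26, class I genes with near-identical relatives that a probe set may share, and B2m, their partner chain, at 1.74. Complement gave C1qc and C1ra higher at E18.5 (2.69 and 2.33) and Masp1 higher at E14.5 (2.16). Csf1r, the brightest of the macrophage genes, had 1341 and 1477 at E14.5 and 1241 and 1659.7 at E18.5.

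Secreted and hormone-responsive regulators followed. In the insulin-like growth factor axis 4 of 16 genes were counted, all binding proteins. Igfbp3 had 262 and 308 at E14.5 and 1888 and 1795 at E18.5 and was 6.47-fold higher, beside Igfbp7, Igfbp2 (2.10) and Igfbp1, whereas the growth factor Igf2 stood at 1.27 and Igfbp4 at 1.70. Hypoxia and angiogenic genes gave 4 of 22 and a median of 0.59. Ndrg1, induced by low oxygen in many cells, had 312 and 294 at E14.5 and 2183 and 2232 at E18.5, a ratio of 7.28. Vegfa, the vascular growth factor, was 2.99-fold higher and Epas1, which encodes the oxygen-regulated factor HIF-2 alpha, 2.96-fold, but Pgk1, a glycolytic target, stood at 1.11. Glucocorticoid-responsive genes gave 4 of 20, among them Cebpd at 2.87, Sgk1, a kinase that regulates sodium transport, at 2.68 and Tsc22d3 at 2.05. The early response genes Ccn2 and Ier3 were 4.11- and 3.82-fold higher, with 2 of 21 counted. Of 37 cyclins, kinases and inhibitors 3 were higher at E18.5, the brakes Rb1 (2.74) and Cdkn1a (2.70) and Ccnd3 (2.00), and 2 at E14.5, Ccne2 (2.50) and Ccnd2 (2.32).

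A technical measure moved with the stage. The 9 probe sets for bacterial and phage P1 transcripts, which are added to the hybridisation in fixed amounts, were 1.55- to 3.05-fold brighter on the E14.5 control arrays, with a median of 2.50, and 7 of them met the size criteria. The mutant arrays showed the same order, with medians of 770 and 568 at E14.5 and 231 and 173 at E18.5. The ratio of 3′ to 5′ actin probe sets was 1.57 and 1.92 at E14.5 and 1.5 and 1.45 at E18.5, whereas that of Gapdh was 1.10 and 1.01 at E14.5 and 1.06 and 1.10 at E18.5. The part of these differences in the genes counted as higher at E14.5, described next, was not tested.

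Cell division had the lowest median of the function lists and led the E14.5 side. Of 61 genes of mitosis and cytokinesis 9 were counted as higher at E14.5 and none at E18.5, 60 had a ratio below 1, and the median was -0.74 (-0.87 to -0.59). Most members therefore lay under the limit of 2. Smc4, a condensin subunit that compacts chromosomes, had 3591 and 3829 at E14.5 and 723 and 690.1 at E18.5 and was 5.25-fold higher at E14.5. Kif20a, a kinesin of cytokinesis, had 439.6 and 578 at E14.5 and 178 and 206 at E18.5, a ratio of 2.65. Incenp, which anchors the Aurora B kinase, had 906 and 1396 at E14.5 and 435 and 443 at E18.5 and was 2.62-fold higher. Top2a, the topoisomerase that untangles sister chromosomes and the brightest member, had 3604 and 3385 at E14.5 and 1949 and 2015 at E18.5, with no overlap between stages and a ratio of 1.76 that missed the limit. Kif22, nearly as bright, had 2691 and 2379 at E14.5 and 2380.0 and 2454 at E18.5 and did not differ beyond the duplicates. When any probe set of a gene was accepted, 16 of the 61 were counted, against 535 of all 18194 genes under that rule.

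Promoters of these genes, given here for the brightest members with a match, share 2 short motifs: CCAAT, the CCAAT box, and TTTGAA, the core of the cell cycle homology region that mitotic genes are known to carry. A promoter means the 250 bases before and 50 after the annotated start in the RefSeq table of build GRCm38.p6. Either strand counted, so ATTGG and TTCAAA are matches too; all are in capitals. The table matched 51 of the 61 mitosis genes. Both motifs stood in 32 of their 57 promoters, or 56.1%, against 6.95% of 32851 promoters of the table and 6.25% of 48 DNA replication promoters. With or without the other motif, CCAAT stood in 73.7% of the mitosis promoters, 52.1% of the DNA replication promoters and 37.4% of all. TTTGAA stood in 66.7%, 10.4% and 17.9%. A match describes the letters only, and Kif22 held both motifs with a ratio near 1. The promoters of Top2a (chr11:99024140-99024439, minus strand), Cdk1, the mitotic kinase (chr10:69352863-69353162, minus strand), and Kif22 (chr7:127042371-127042670, minus strand) read as follows.
Top2a: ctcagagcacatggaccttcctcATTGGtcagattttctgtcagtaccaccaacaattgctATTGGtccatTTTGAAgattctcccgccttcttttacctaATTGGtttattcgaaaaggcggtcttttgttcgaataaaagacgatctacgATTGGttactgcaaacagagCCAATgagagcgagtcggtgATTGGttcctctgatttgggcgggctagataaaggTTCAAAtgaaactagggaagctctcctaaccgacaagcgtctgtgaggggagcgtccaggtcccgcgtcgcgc
Cdk1: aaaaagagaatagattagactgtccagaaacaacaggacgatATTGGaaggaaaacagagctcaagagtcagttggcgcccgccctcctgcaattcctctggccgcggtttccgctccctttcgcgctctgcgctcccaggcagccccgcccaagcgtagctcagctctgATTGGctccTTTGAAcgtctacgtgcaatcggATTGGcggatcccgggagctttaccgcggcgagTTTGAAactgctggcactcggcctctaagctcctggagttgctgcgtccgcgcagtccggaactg
Kif22: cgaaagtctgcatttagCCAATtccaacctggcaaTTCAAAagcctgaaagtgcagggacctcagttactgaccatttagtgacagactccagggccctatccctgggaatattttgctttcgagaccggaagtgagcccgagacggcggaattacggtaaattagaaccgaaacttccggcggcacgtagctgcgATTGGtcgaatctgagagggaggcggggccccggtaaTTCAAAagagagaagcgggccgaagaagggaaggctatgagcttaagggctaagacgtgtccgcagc
Cdk1 had 2954 and 2814 at E14.5 and 1675 and 1769 at E18.5, a ratio of 1.67, closer to that of Top2a than to that of Kif22.

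DNA replication gave 6 of 47 genes higher at E14.5, 42 ratios below 1 and a median of -0.46. Cdc6, which loads the replicative helicase, had 383 and 464 at E14.5 and 158 and 155 at E18.5, a ratio of 2.71. Rrm2, the ribonucleotide reductase subunit that makes DNA precursors, was 2.49-fold higher from 3045 and 3168 at E14.5 and 1267 and 1225 at E18.5. Orc6, of the origin recognition complex, was 2.23-fold higher, while Pcna, the clamp of the polymerases, stood at 1.37 and Mcm7, of the helicase, just missed the limit at 1.93. Pclaf, a partner of Pcna, was 2.40-fold higher and was among the 20 brightest of the E14.5 side. Repair genes gave 1 of 43, Exo1 at 2.19, with 36 ratios below 1.

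Histone variants and HMG proteins gave 3 of 22, with 21 ratios below 1 and a median of -0.40. Hmga2, which bends AT-rich DNA and marks immature cells, had 4951 and 4632 at E14.5 and 714 and 709 at E18.5 and was 6.74-fold higher at E14.5, and H3f3a, read by a single probe set of a gene with near-identical copies, was 3.16-fold higher. Set, a histone chaperone, was 2.28-fold higher, whereas Hmgn1, the brightest member, stood at 1.06. Of 53 chromatin remodelling and silencing genes 5 were counted. Smarcc1, a core subunit of the SWI/SNF remodeller, had 1519 and 1460.0 at E14.5 and 423 and 423 at E18.5, a ratio of 3.52. Chd1, a remodeller of active genes, was 3.02-fold higher and Cbx2, of Polycomb complex 1, 2.38-fold, while Trim28, a corepressor, stood at 1.21. With any probe set accepted the count was 13 of 53, against 535 of all 18194 genes under that rule.

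Few RNA processing genes were counted on their brightest probe sets. Splicing factors had 36 of 48 ratios below 1 and a median of -0.30, with Snrpa1 higher at E14.5 (2.40) and Hnrnpl at E18.5 (2.24); with any probe set accepted the counts were 10 on the E14.5 side and 1 on the other. Ribosome biogenesis had 30 of 39 ratios below 1, a median of -0.29 and 2 genes counted, Heatr1 (2.21) and the helicase Ddx21 (2.04). Nuclear pore and transport genes had 34 of 41 ratios below 1 and a median of -0.36, with none counted by the brightest and 3 by any probe set as higher at E14.5. Ran, the GTPase that drives nuclear transport, had 9558 and 9207 at E14.5 and 6193 and 5821 at E18.5. The 40 listed ribosomal protein genes had a median of 0.03 and none counted in either direction, but Rpl27a, which is not on that list, had 2126 and 2726 at E14.5 and 617 and 508 at E18.5 and was 4.31-fold higher at E14.5, the only one of 24 Rpl genes counted. The brightest of the list, Rps29 and Rps28, stood at 1.17 in the E18.5 and 1.13 in the E14.5 direction. Of 36 Rbm genes, which encode RNA-binding proteins, 3 were higher at E14.5: Rbm28 (2.75), Rbm45 (2.37) and Rbm27 (2.05).

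Developmental regulators are given here as single genes. In the Wnt, BMP and TGF-beta and Hox lists 2.17%, 4.17% and 3.33% were counted as higher at E18.5, near the 3.66% of all genes. Such counts say little about these lists. Of the axon guidance, hedgehog and FGF and Ret lists 3.92%, 11.8% and 3.33% were higher at E14.5, against 1.21% of all genes. Those shares rest on 1 or 2 genes each. Robo2, the Slit receptor that limits ureteric budding, had 2288 and 2202 at E14.5 and 637 and 695 at E18.5 and was 3.37-fold higher at E14.5. In the axon guidance list 2 of 51 were higher at E14.5, the other being Sema5a (2.13), and Sema3g was 3.05-fold higher at E18.5, for a median of 0.04. Nr2f1, an orphan nuclear receptor, had 1866 and 2011 at E14.5 and 702 and 660.5 at E18.5, a ratio of 2.85, whereas its relative Nr2f2 stood at 1.33. Gli3, a hedgehog effector, and Sall1, a progenitor factor, were 2.06- and 2.04-fold higher at E14.5, and the ligand Ihh was 2.43-fold higher at E18.5. Spry2, a feedback inhibitor of Ret and FGF signalling, was 2.64-fold higher at E14.5. The Wnt inhibitor Sfrp1 was 2.78-fold higher at E18.5, the only one of 46 Wnt genes counted, and 2 of 48 BMP and TGF-beta genes were, Ltbp4 (3.23) and Tgfb1 (2.06). Of 30 Hox genes 1 was counted, Hoxd8, 2.13-fold higher at E18.5. The stromal factor Foxd1 had 1463 and 1517 at E14.5 and 362 and 428 at E18.5 and was 3.77-fold higher at E14.5. In the nephron progenitor list 2 of 6 genes were counted as higher at E14.5, Eya1 (2.16) and Six2 (2.10). Of the 6, 4 had a ratio below 1 and 2 above 1, for a median of -0.40. From this list 1 gene lay below the 40th percentile on all control arrays. Wnt11, the brightest ureteric tip gene, stood at 1.06.

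The brightest genes of the E14.5 side were of mixed function. Actb, cytoplasmic actin, was the brightest and lay just inside the limit, with 16201 and 15646 at E14.5 and 7409 and 8417 at E18.5. Sox11, a transcription factor of immature tissue, had 6838 and 5559 at E14.5 and 721 and 664 at E18.5, a ratio of 8.95 (7.71 to 10.3). Bbip1, a small subunit of the ciliary BBSome, had 6301 and 5841 at E14.5 and 762 and 829 at E18.5, and Rpgrip1, a protein of the photoreceptor cilium, had 6963 and 6713 at E14.5 and 1089 and 1123 at E18.5, ratios of 7.63 and 6.18. Ptp4a2, a phosphatase, was 5.74-fold higher, Zfp207, a spindle protein, 5.55-fold, Rpf2, of ribosome assembly, 4.55-fold and the long non-coding RNA Tug1 4.31-fold. Ddx3x, a helicase, Top1, a topoisomerase, Psmd11, of the proteasome, Snai2, a mesenchymal factor, and Fscn1, which bundles actin, lay between 2.01 and 2.36. Probe sets of a gene did not always agree. Of the 151 counted E14.5 genes with another probe set reaching the 40th percentile, 125 had the others higher at E14.5 as well, and at E18.5 the figures were 245 of 292. Under the mean over all probe sets of the gene, the log2 ratios of Myh9 and Fscn1 turned from E14.5-higher to 0.09 and 0.31, and that of Sema5a to 0.10.

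**Figure D3:**
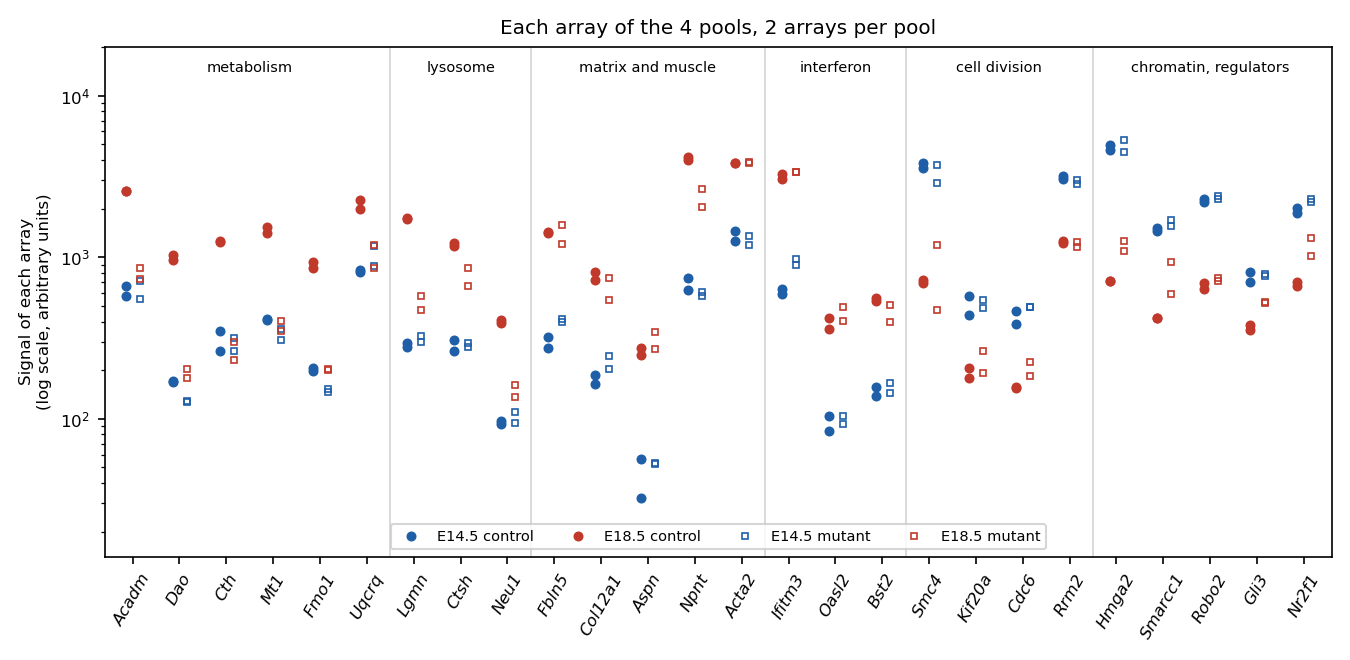
Signal of each array (y axis, log scale, arbitrary units) for genes of 6 groups; filled circles are control and open squares mutant arrays, blue E14.5 and red E18.5. The mutant stages lie close together for the metabolism genes and apart for matrix, interferon and cell division.

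The mutant pools, which share no array with the controls, gave the stage ratio a separate reading. Loss of Lim1 from the mesenchyme blocks nephron formation, and in these pools the proximal tubule markers had a median log2 stage ratio of 0.19 against 3.74 in controls. They are therefore no repeat of the control comparison, and genes were chosen on the control ratio. In mutants 167 genes, or 0.918%, met the size criteria as higher at E18.5 and 135, or 0.742%, as higher at E14.5. Of the 617 genes in the range, 123 were also counted in mutants, or 19.9%, and of the 220 on the E14.5 side 111, or 50.5%. None was counted in the opposite direction. The E18.5 mutant arrays differed 1.5-fold or more from each other in 37 of those 220 genes and in 11 of the 617. On the E14.5 side these were 13 of 159 genes at 2- to 3-fold, 15 of 37 at 3- to 4-fold and 9 of 24 at 4- to 10-fold. In the same bands of the E18.5 side they were 9 of 417, 1 of 92 and 1 of 108.

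The mutant values differed between the functions. For 39 genes of the range from 6 metabolic lists (fatty acid oxidation, peroxisome, tricarboxylic acid cycle, respiratory chain, amino acid breakdown and redox defence), the mutant log2 ratio had a median of 0.14 and a highest value of 0.82, and none was counted. Acadm stood at 1.26 in mutants against 4.17 in controls, Cth at 0.921 against 4.11 and Sod3 at 1.30 against 9.13. Over all members, counted or not, the mutant list medians were 0.07 for fatty acid oxidation, -0.02 for amino acid breakdown and -0.26 for the respiratory chain. None of the 32 solute carriers of the range was counted in mutants. For 30 genes of matrix, basement membrane and smooth muscle the mutant median was 1.36. Of the 18 interstitial matrix genes 15 were counted in both genotypes, and the list median in mutants was 0.91 against 0.99. Fbln5 stood at 3.42 in mutants, Myh11 at 5.71 and Acta2 at 3.02. Of the 7 interferon response genes 5 were counted in both, with Oasl2 at 4.57 in mutants. Lysosomal genes lay between, with 2 of 14 counted in both and a mutant median of 0.34 against 0.56. Mitosis had medians of -0.73 and -0.74, and 5 of its 9 genes were counted in both. Whether the stage difference depends on genotype was not tested, with 1 pool per genotype and stage.

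**Figure D4:**
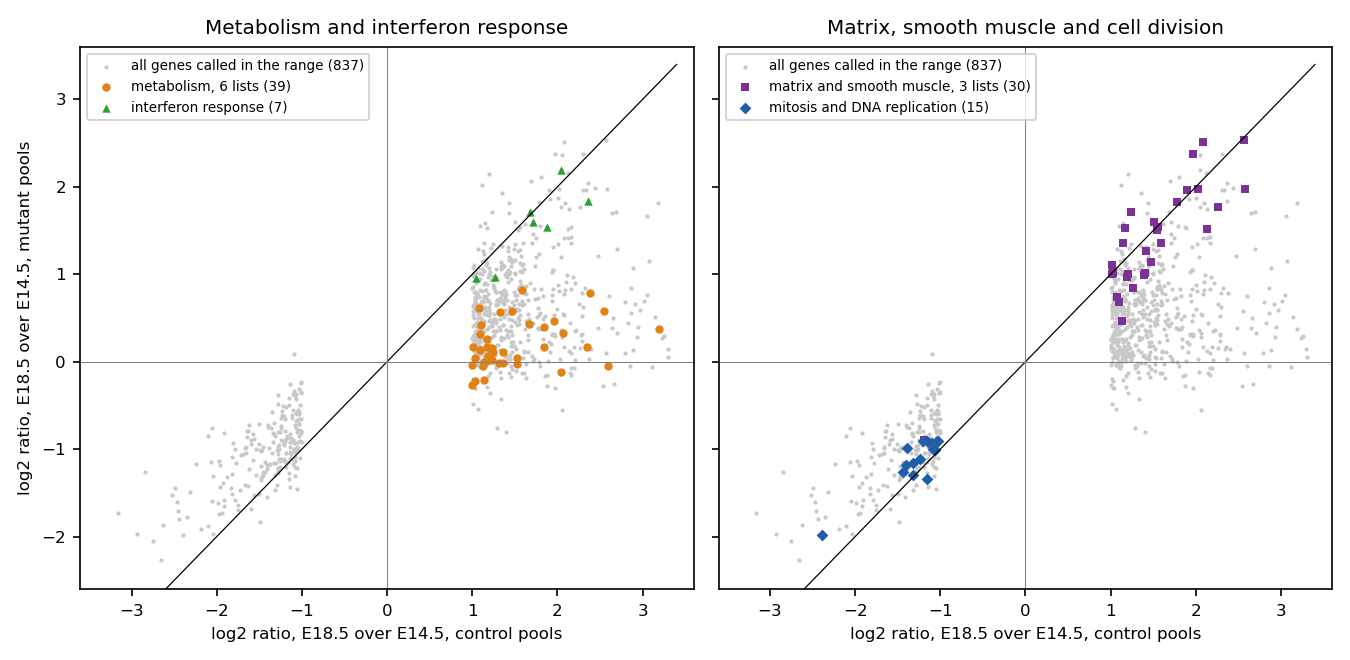
Stage ratios (log2, E18.5 over E14.5) of mutant pools (y axis) against control pools (x axis) for the 837 genes of the range (grey), with the diagonal marking equal ratios. Coloured points are 39 metabolic and 7 interferon genes on the left, and 30 matrix or smooth muscle and 15 cell division genes on the right. Metabolic genes lie near 0 on the mutant axis, the other groups nearer the diagonal.

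A model with stage and genotype as separate terms, fitted with limma to the 4 pool means, tested the stage effect shared by both genotypes. Of 13436 genes tested, 489 (3.64%) were higher at E18.5 and 541 (4.03%) at E14.5 at an adjusted p under 0.05. Over all 27061 probe sets tested the figures were 926 (3.42%) and 1406 (5.2%). In the range it held 229 of 552 tested E18.5 genes and 192 of 215 E14.5 genes, which were chosen on the same control arrays, so that the direction was fixed by the choice. Interstitial matrix led, with 24 of 34 genes rising, among them Fbln5 (adjusted p = 0.0166, log2 effect 2.01) and Col12a1 (adjusted p = 0.0181, log2 effect 1.81). In basement membrane 11 of 20 genes rose, in junctions and keratins 9 of 29, in the interferon list 8 of 23 and in the lysosome list 9 of 30. Ifitm3 rose with adjusted p = 0.0159, Ctsh with 0.0198 and Npnt with 0.0163. In mitosis 37 of 60 genes fell and in DNA replication 19 of 47, with Top2a at adjusted p = 0.0343 and a log2 effect of -0.73. Nuclear pore and transport genes fell in 11 of 41, chromatin remodelling in 10 of 53 with 1 rise, and ribosome biogenesis in 9 of 39. In the respiratory chain 0 of 41, in the tricarboxylic acid cycle 0 of 21 and in amino acid breakdown 0 of 26 passed. At an unadjusted p under 0.05 the figures were 6, 1 and 7, against 7531 of all 27061 probe sets. Acadm did not pass (adjusted p = 0.140). Leaving out 1 array moved the probe set counts to 431 and 773 without E18.5 control replicate 2 and to 1992 and 2097 without E18.5 mutant replicate 1. The model had 1 residual degree of freedom, the spread it used was largely that of all genes together, and a stage difference that depends on genotype counts as error in it.

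The remaining lists had few counted genes in controls. Over all genes 3.66% were counted as higher at E18.5 and 1.21% at E14.5, and counts of 1 or 2 genes say little about a list. Chaperones had 1 of 28 genes higher at E18.5, Cryab, a small heat shock protein, at 2.74-fold, prostaglandin enzymes 1 of 16, Hpgd, which inactivates prostaglandins, at 2.10-fold, and the circadian clock 1 of 17 higher at E14.5, the kinase gene Csnk1e at 2.05-fold. Nuclear receptors had only Nr2f1 of 30 counted. Neuronal-type cytoskeleton gave Kif21a at E18.5 (2.10) and Dpysl2 (2.06) and Fscn1 at E14.5, translation and tRNA charging 1 of 43, and the proteasome 1 of 33, Psmd11. Their medians lay between -0.23 and 0.12.

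Markers of neighbouring tissue were checked against the whole list. Nerve and Schwann cell, skeletal muscle, cartilage, and adrenal and gonad genes had none of 7, 8, 5 and 8 counted, against 3.66% and 1.21% of all genes, and 2, 3, 2 and 3 of them lay below the 40th percentile on all control arrays. In limma 1 skeletal muscle gene, Acta1, fell (adjusted p = 0.0405, log2 effect -0.62). The summed signals of the nerve and cartilage lists overlapped between stages. Skeletal muscle genes summed to 1680.3 and 1844 at E14.5 against 1620.1 and 1677 at E18.5, and adrenal and gonad genes to 1404 and 1537 against 1274 and 1340.3. Liver markers gave 2 of 5 higher at E18.5, with a summed signal of 947 and 1112 at E14.5 against 4251 and 4456 at E18.5. Afp, alpha-fetoprotein, had 309 and 491 at E14.5 and 2028 and 1858 at E18.5 and Ttr, transthyretin, was beyond the range at 18.1-fold, but albumin (Alb) had 215 and 209 at E14.5 and 344 and 369.9 at E18.5 and was not counted. Of 3 adipocyte genes Fabp4, which capillaries express too, had 875 and 1136 at E14.5 and 4085 and 4029.7 at E18.5 and was 4.04-fold higher. The other 2 had ratios below 1 and lay below the 40th percentile on all control arrays, and the list median was -0.01. Of 5 urothelium genes 1 was counted, Upk3a, 2.16-fold higher at E18.5 and counted in mutants too. In controls 2 ratios of that list lay above 1 and 3 below 1. The part of cells from neighbouring tissue in the differences above was not tested.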

How the data were processed

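Array labels gave stage, genotype and array number. Per the study's methods, kidney RNA was pooled by stage and genotype, 2 targets were prepared from each pool and hybridised to separate arrays, and the authors made the deposited intensity values with MAS 5.0 and dChip2004, scaling the arrays to each other by an invariant set of probes. The values are linear signal intensities and were used as deposited; the number of arrays limits their precision. Gene names came from the platform annotation updated through gene identifiers: of 45101 probe sets 34958 had 1 gene, 932 several and 9211 none, and only the first were named. Ratios are of arithmetic means of the duplicates, computed with Python 3.11.15, numpy 2.4.6 and pandas 2.3.3. The model over 4 pool means of log2(signal + 1) used limma 3.58.1 in R 4.3.3 with Benjamini-Hochberg adjustment over 27061 probe sets, leaving out the dimmest 40% by mean signal. It was also run on simulated data with the same stage effect in both genotypes. That run did not cover a stage effect that depends on genotype. With 1 residual degree of freedom the adjusted p-values of the model can be too small.

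Genes, 45 function lists and 19 cell type lists were chosen with earlier results of these data known, so no list count is independent support; 133 list entries had no measured gene. Named genes were the 20 brightest counted genes of the range in each direction, per function list the 3 highest ratios under 10 in each direction and the 2 brightest members, per cell type list the brightest and the counted members with the highest and lowest ratio, and per symbol family the 3 highest counted ratios. Printed promoters belong to bright list members with a match. Other named genes, such as the collagen VI chains, Eln, Lox, Ctsa, Ctsl, Cdk1, Alb and Atp6v0b, were chosen after their values were seen. Alternatives changed the signal minimum, normalisation, averaging, offset, duplicate criterion, probe set rule, array pairing and arrays used. RNA pools were single, so ratios carry no biological error.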

Additional observations from a re-analysis of the deposited data

Results flagged for a closer look

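In controls and mutants the stage ratio ran in opposite directions on every array pairing for 2 metabolic lists and 2 genes, and for 1 cell type list. On the log2 scale (E18.5 over E14.5) the median was 0.5311 in controls and -0.2551 in mutants for the tricarboxylic acid cycle, and 0.6431 and -0.2641 for oxidative phosphorylation subunits. For erythroid genes, among them the globins, it was 0.0323 and -0.1495. The control median hides 2 large differences, since the embryonic globins Hbb-y and Hba-x were 280.2- and 6.88-fold higher at E14.5 in controls. The summed erythroid signal of the controls was 11096 and 11635 at E14.5 against 4474 and 4672 at E18.5. In mutants both globins were counted as higher at E14.5 too, among 3 erythroid genes counted in that direction and 0 in the other. Cyp51, an enzyme of cholesterol synthesis, had ratios of 2.0894 in controls and 0.687 in mutants, and Slc12a3, the sodium chloride cotransporter of the distal tubule, of 3.9199 and 0.8142. The differences between genotypes were not tested, since each stage and genotype was 1 pool.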

How the results depend on the processing

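Of the counts of genes or probe sets under alternatives, 70 kept within 1.5 times the main value, 4 were higher and 4 lower. Of the list medians 606 moved by less than the spread between arrays, 29 moved further and 5 changed sign. Of the ratios of single genes 2030 stayed, 154 moved and 3 changed sign. Accepting any probe set gave 535 genes higher at E14.5, 533 of them in the range. Leaving out 1 control array at a time gave 633 to 734 genes higher at E18.5 and 175 to 308 at E14.5, of which 599 to 651 and 167 to 219 were the same genes as with all arrays. The 50th percentile, no minimum, quantile normalisation, median scaling, geometric means and an offset of 50 gave 520 to 722 and 172 to 248 genes. Same-numbered arrays of the control pools deviated together with a correlation of 0.0945. Between other pools this correlation ran from -0.4032, for E18.5 control with E14.5 mutant, to 0.4588, for E14.5 control with E18.5 mutant. It was 0.4153 for E18.5 control with E18.5 mutant. What same-numbered arrays have in common was not tested. A replicate block, with the ratio at 2 in both same-numbered pairs, gave 553 and 159 genes. In limma, leaving out 1 of 8 arrays gave 431 to 1992 probe sets higher at E18.5 (926 with all) and 773 to 2097 higher at E14.5 (1406 with all). Both lowest counts came without E18.5 control replicate 2 and both highest without E18.5 mutant replicate 1; without E18.5 control replicate 1 the counts were 1410 and 1852, and without E14.5 mutant replicate 1 they were 589 and 856. The Wnt list median became -0.0169 under quantile normalisation. The translation median became 0.0241 under median scaling and ran from -0.0607 to 0.0039 with 1 array left out. The erythroid median became -0.11 with the mean over probe sets, under which Fscn1, Myh9 and Sema5a became 0.3058, 0.0857 and 0.1024, and it ran from -0.0516 to 0.1147 with 1 array left out. The causes were not tested. Low signals limit the ratios of genes below the 40th percentile at one stage, 160 of the 617 and 31 of the 220.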
